A study of Mus musculus with 12 samples.

Results

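Integrins and laminins are the adhesion receptors and the basement membrane proteins through which uterine muscle, vessels and glands hold to the matrix around them. All rows of the deposited count table whose gene symbol is that of an integrin alpha chain, an integrin beta chain or a laminin chain were taken, whatever their values. They were 37 of 24964 genes, of which 18 code for integrin alpha chains, 8 for integrin beta chains, 5 for laminin alpha, 3 for laminin beta and 3 for laminin gamma chains. RNA came from uterine tissue of pregnant mice at 13.5 days post coitum, in 12 libraries, 4 for each of 3 groups. PGR-B OE mice (Myh11Cre; LSLPGRB/+) carried a Cre-dependent transgene for progesterone receptor isoform B, PGR-A OE mice (Myh11Cre; LSLPGRA/+) one for isoform A, and control mice (Myh11Cre) the Cre driver alone. All 3 groups thus carried the Cre, which is driven by a smooth muscle myosin promoter, so the transgenes were switched on in smooth muscle while the RNA was that of the whole tissue. No strain or age is given in the sources used here.

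An integrin is a pair of 1 alpha and 1 beta chain in the cell membrane, and the pair decides what it binds. The chain coded by Itgb1 joins most alpha chains, the alpha chains of Itga1, Itga2, Itga10 and Itga11 bind collagens with it, those of Itga3, Itga6 and Itga7 bind laminins, and those of Itga5, Itga8 and Itgav bind fibronectin, nephronectin, vitronectin and other proteins with an arginine-glycine-aspartate site. A laminin is a trimer of 1 alpha, 1 beta and 1 gamma chain that polymerises into the sheet around each smooth muscle cell and under each epithelium and endothelium. In the pregnant uterus, integrins link the contractile apparatus of the muscle cells to the growing matrix.

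The promoters of the 4 genes with most said about them below, Itgb1, Itga11, Lamb2 and Lamb1, are shown for reference, because the overexpressed factor is a nuclear receptor that binds DNA. Promoters in RefSeq's GRCm38.p6 annotation matched 23 of the 37 genes, with 26 promoters in all. The stretches below lie on the plus strand and end at the base before the annotated first exon (chr8:128685404-128685653 for Itgb1, chr9:62677605-62677825 for Itga11, chr9:108479612-108479735 for Lamb2 and chr12:31265043-31265233 for Lamb1). Capitals mark TGTTCT, the half-site shared by progesterone, glucocorticoid and androgen receptors, and GGGCGG, the GC box, on either strand, so that they also appear as AGAACA and CCGCCC.
Itgb1: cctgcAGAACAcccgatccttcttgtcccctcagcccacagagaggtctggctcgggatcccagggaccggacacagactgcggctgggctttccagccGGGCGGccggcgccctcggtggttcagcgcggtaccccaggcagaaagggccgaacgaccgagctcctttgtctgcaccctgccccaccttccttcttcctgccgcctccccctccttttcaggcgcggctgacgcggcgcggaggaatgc
Itga11: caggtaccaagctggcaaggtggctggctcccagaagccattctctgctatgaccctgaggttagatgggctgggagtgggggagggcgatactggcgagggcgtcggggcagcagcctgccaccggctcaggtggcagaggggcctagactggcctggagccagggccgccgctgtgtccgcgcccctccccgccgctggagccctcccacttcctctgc
Lamb2: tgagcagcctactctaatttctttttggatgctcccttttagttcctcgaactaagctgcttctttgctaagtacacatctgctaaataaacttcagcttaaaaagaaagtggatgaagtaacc
Lamb1: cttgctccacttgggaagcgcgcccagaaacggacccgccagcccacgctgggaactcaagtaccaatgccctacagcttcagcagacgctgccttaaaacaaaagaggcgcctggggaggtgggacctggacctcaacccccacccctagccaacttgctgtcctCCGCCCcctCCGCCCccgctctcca
The Itgb1 promoter held 1 half-site, 245 bases before the transcription start in RefSeq, and 1 GC box, 151 bases before it. The Lamb1 promoter held 2 GC boxes, 84 and 75 bases before RefSeq's start. That start lies 59 bases after the one in GENCODE, where the stretch shown ends, so the last 59 bases before it are left out. For the same reason 29 bases are left out for Itga11 and 126 for Lamb2, whose stretches held neither motif. In the 250 bases before the start, TGTTCT was found on either strand in 5 of the 26 promoters (those of Itga2, Itgax, Itgb1, Itgb7 and Lama2) and in 16.1% of the 32851 promoters of the annotation. GGGCGG was found in 9 of the 26 and in 32.7% of all. TATAAA was found in 0 of the 26 and in 12.4% of all. The full palindrome, that half-site 3 bases after its own reverse complement, was in 0 of the 26 and in 0.00913% of all. A palindrome holds the half-site on both strands. A match of letters does not show that a protein binds there.

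Library totals ran from 31872534 to 33078483 counts. The count for Pgr, the gene of the progesterone receptor, ran from 187.9 to 248.4 CPM (counts scaled to the TMM-adjusted library size) in PGR-B OE, from 165.8 to 254.8 CPM in PGR-A OE and from 106.1 to 142.3 CPM in control libraries, without overlap between either overexpression group and control. PGR-A OE replicate 4 stood apart from the rest, at 62.4 on a first principal component that held 23% of the variance, where the other 11 libraries lay between -31.0 and 7.58. Its decidual prolactin Prl8a2 was at 5.02 CPM, against 173.6 to 5054 CPM in the other libraries, with the highest in control replicate 4. Some results, as for Itga9 and Itga11, are also given without PGR-A OE replicate 4. Others, as for Lama5, Tns1 and Flnc, are given with all libraries only. No marker of the 10 used for smooth muscle was at 0 in any group. Whether the libraries of a group are from separate animals is not in the labels. The p-values thus set each change against the spread between these samples, which may be technical.

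Together the 37 genes took between 0.517% and 0.667% of a library's counts. Levels between genes were compared as CPM per kilobase of the deposited gene length, as the mean of the 4 control libraries. Itgb1, at 275 ± 31.1 CPM per kilobase (SD, n = 4), was the highest of the 37 and stood at the 98.7th percentile of all genes. Next came Lamb2 at 103 ± 10.3, Itga5 at 97.3 ± 13.2, Lamc1 at 91.1 ± 8.38, Itgb5 at 90.5 ± 8.09 and Lamb1 at 64.9 ± 5.32 CPM per kilobase. Itga6 (55.1 ± 9.06), Lama4 (50.7 ± 3.65) and Lama5 (28.6 ± 3.42) followed, all in CPM per kilobase. Lama1 (0.79 ± 0.287) and Lamc3 (0.44 ± 0.127) were the lowest laminin chains. In the order of control levels, the libraries of 7 of the 36 pairs of neighbours did not overlap: Itgb1 above Lamb2, Itgb5 above Lamb1, Lama4 above Lama5, Lama5 above Itga3, Itga10 above Itga11, Itga11 above Lama1 and Lamc3 above Itgad. The other 29 neighbours overlapped, among them those in the run of Lamb2, Itga5, Lamc1 and Itgb5. This rule sets ranges over the 4 libraries against each other. It does not compare genes within the same library, so an overlap does not show that genes had no order.

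**Figure D1:**
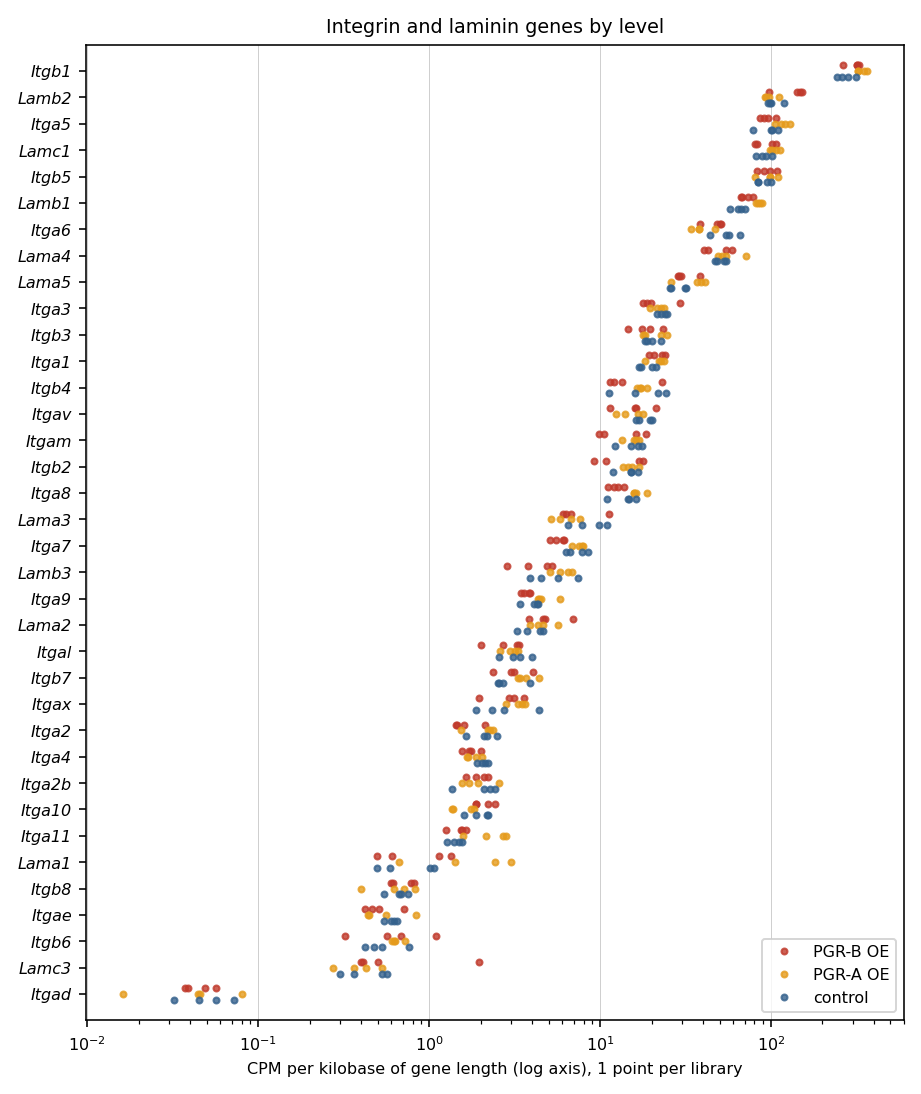
Level of the genes, all but 1 of the 37, in CPM per kilobase of gene length on a log axis, with 1 point per library, in PGR-B OE, PGR-A OE and control. Genes run down the page from the highest to the lowest mean in control, and most genes overlap between the groups at their level.

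By chain, the tissue had a simple make-up, shown here as shares of the summed CPM per kilobase of a chain type. Itgb1 made up 67.6% of integrin beta chain signal in PGR-B OE, 68.6% in PGR-A OE and 64.9% in control libraries. Itga5, the fibronectin receptor chain, made up 37.8% of the alpha chain signal in PGR-B OE, 42.4% in PGR-A OE and 36% in control libraries, and Itga6 18.6%, 14.2% and 20.5% in the same order. Among laminins, Lama4 (52.2%, 53.6% and 54.5% of alpha chains) and Lama5 (33.3%, 34.1% and 30.8%) led. Both are among the alpha chains known from smooth muscle and vessel basement membranes, though not only from there. Lamc1 was 81.5% of gamma chain signal in PGR-B OE, 82.8% in PGR-A OE and 82.4% in control libraries.

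The leukocyte integrins were measurable at a lower level. Itgb2, the beta chain that all leukocytes share, ran from 26.3 to 50.8 CPM in PGR-B OE, from 39.1 to 48.6 CPM in PGR-A OE and from 33.9 to 47.7 CPM in control libraries. Its partner Itgam, of macrophages and neutrophils, ran from 45.9 to 86.8 CPM in PGR-B OE, 62.5 to 78.6 CPM in PGR-A OE and 57.2 to 81.8 CPM in control libraries, and 68.7% of its exon bases are shared with another gene model in the annotation, which has no row in the count table. The summed level of 7 macrophage markers ran from 879 to 1300.1 CPM in PGR-B OE, from 1022 to 1312 CPM in PGR-A OE and from 1026 to 1209 CPM in control libraries. In bulk tissue, fewer cells of a type and less RNA per cell cannot be told apart. Itgad, a macrophage integrin, had 74 counts over all 12 libraries, between 2 and 11 in each, and was not tested, which left 36 genes.

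In PGR-A OE against control, 0 of the 36 genes passed an adjusted p of 0.05 in edgeR's quasi-likelihood test, adjusted by the Benjamini-Hochberg method, where 0.655% of all 15561 genes tested passed. At an unadjusted p under 0.05 there were 9, 6 of them higher and 3 lower, where 15.4% of all genes were under that p (7.56% higher and 7.87% lower). DESeq2 called 3 (3.83% of all genes) and limma voom 0 (0.611% of all genes). The groups did not overlap for 3 of the 36, where 10.6% of all genes did not. A log2 change above 0 was found in 22 of the 36, with a median of 0.09 against 0.0005 over all genes. The count at an unadjusted p under 0.05 was 5 without control replicate 1. The share of all genes under that p in this fit is not given, so the drop is not read as particular to these genes.

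The genes with the lowest p in this comparison were the laminin chain Lamb1 and the collagen receptor chain Itga11. Lamb1, a beta chain of laminins in embryonic and growing tissue and in vessels, was at 471, 484, 495 and 515 CPM in PGR-A OE and at 334, 388, 406 and 371 CPM in control libraries. Every PGR-A OE library was above every control library. That is a log2 change of 0.39 (SE 0.08, Benjamini-Hochberg adjusted p = 0.0536 in edgeR's quasi-likelihood fit), just outside the threshold, and the adjusted p was 0.000169 by DESeq2. Leaving out 1 library of either group gave adjusted p-values between 0.0597 and 0.191 by edgeR.

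Itga11, whose protein binds fibrillar collagen on fibroblasts, was at 13.8, 13.3, 10.6 and 7.75 CPM in PGR-A OE and at 7.38, 6.3, 7.7 and 6.94 CPM in control libraries. The groups did not overlap, though PGR-A OE replicate 4 was only just above the highest control library. This gave a log2 change of 0.68 (SE 0.17, edgeR adjusted p = 0.0991). Without PGR-A OE replicate 4, the library that stood apart, the log2 change was 0.83 and the adjusted p 0.0150 by edgeR, which passes. Leaving out 1 library of either group gave edgeR adjusted p-values between 0.0150 and 0.292. With all libraries the adjusted p was 0.00968 by DESeq2 and 0.133 by limma voom. In PGR-B OE libraries Itga11 was at 8.08, 7.6, 6.22 and 7.65 CPM, with a log2 change against control of 0.06 (SE 0.17, edgeR adjusted p = 0.948). The 7 fibroblast markers summed to between 2481 and 3041 CPM in PGR-B OE, 2402 and 3328 CPM in PGR-A OE and 2219 and 2849.9 CPM in control libraries, and PGR-A OE replicate 4, with the least Itga11 of its group, had the most. Their part in the result was not tested.

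Itgb1, the common beta chain, was at 1531, 1361, 1467 and 1353 CPM in PGR-A OE and at 1019, 1185, 1319 and 1085 CPM in control libraries. The groups did not overlap, with a log2 change of 0.31 (SE 0.10, edgeR adjusted p = 0.195). Itga5, its partner for fibronectin, was at 511, 472, 543 and 576 CPM in PGR-A OE and at 350.3, 451, 449.6 and 488 CPM in control libraries, and 1 PGR-A OE library lay below the highest control library. Its log2 change was 0.27 (SE 0.11, edgeR adjusted p = 0.269). Itga9, a receptor chain for tenascin, was at 32, 30.6, 31 and 41.1 CPM in PGR-A OE and at 24.1, 30.5, 30.7 and 29.2 CPM in control libraries, with the top value in PGR-A OE replicate 4. The log2 change of 0.23 (SE 0.11, edgeR adjusted p = 0.320) was 0.12 without that library.

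Lama1, a laminin chain typical of embryonic and epithelial basement membranes, had the widest log2 change of the 36 in this comparison and also a wide spread. It was at 28.8, 23, 13.4 and 6.37 CPM in PGR-A OE and at 10.2, 5.63, 9.57 and 4.73 CPM in control libraries. In PGR-A OE, 3 libraries were above all controls, while replicate 4 lay among them. Lama1 had a log2 change of 1.25 (SE 0.45, edgeR adjusted p = 0.221). With single libraries of these groups left out, it lay between 0.92 and 1.53 (edgeR adjusted p-values of 0.139 to 0.448).

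On the lower side, Itga6, a laminin receptor chain of epithelium, endothelium and other cells, was at 228, 229.5, 284 and 205 CPM in PGR-A OE and at 396, 339.7, 264 and 326 CPM in control libraries. Only PGR-A OE replicate 3 reached into the control range, above control replicate 3. Itga6 had a log2 change of -0.49 (SE 0.14, edgeR adjusted p = 0.136, and 0.0298 by DESeq2). In PGR-B OE libraries Itga6 was at 232, 302, 306 and 290.0 CPM, between the other groups in its mean, with a log2 change against control of -0.23. Lama3, a chain of the laminin under epithelia, was at 80.6, 61.8, 70.8 and 54.3 CPM in PGR-A OE and at 103, 116, 83.1 and 68.8 CPM in control libraries, with a log2 change of -0.47 (SE 0.21, edgeR adjusted p = 0.316). Itga10, a collagen receptor chain best known from cartilage, was at 8.83, 6.82, 6.9 and 9.19 CPM in PGR-A OE and at 9.45, 8.08, 11.2 and 11 CPM in control libraries, with a log2 change of -0.32 (SE 0.15, edgeR adjusted p = 0.316). For both, the groups overlapped. Itga10 shares 33.5% of its exon bases with another model, which has no row in the count table.

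**Figure D2:**
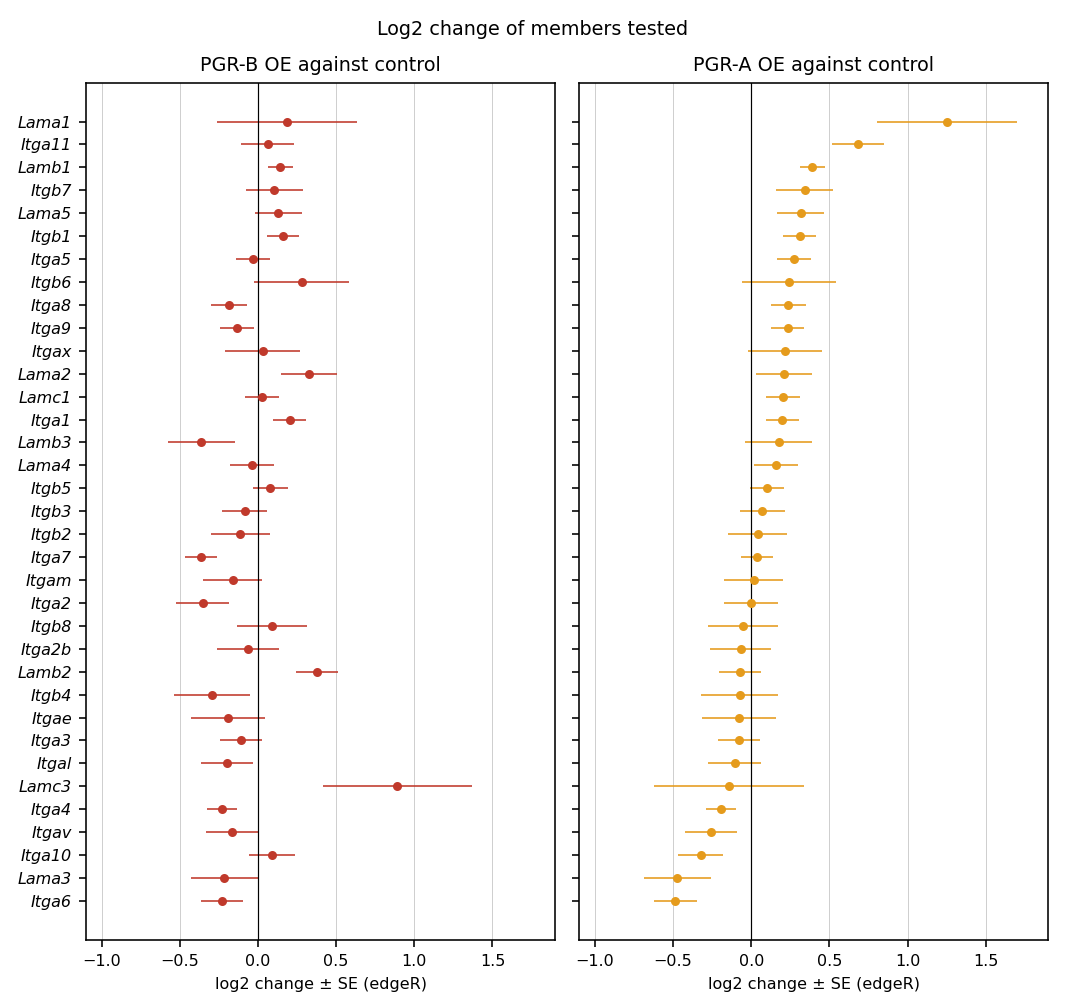
Log2 change with its SE from edgeR for the genes tested, all but 1 of the 36, PGR-B OE against control on the left and PGR-A OE against control on the right, ordered by the change in PGR-A OE. Lama1 at 1.25 and Itga11 at 0.68 lead in PGR-A OE, where their changes in PGR-B OE are 0.18 and 0.06. Both panels use the same control libraries.

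Cell type markers were read beside these values. All 10 smooth muscle markers were above 0 in log2 change in PGR-A OE against control (median 0.30), and 3 were at an unadjusted p under 0.05 (15.4% of all genes). Of the 10, 0 passed by edgeR (0.655%), 2 by DESeq2 (3.83%) and 0 by limma voom (0.611%). Their sum ran from 12138 to 15974 CPM in PGR-B OE, from 16722 to 23208 CPM in PGR-A OE and from 12476 to 16331 CPM in control libraries, so that every PGR-A OE library was above every control library, with replicate 4 the highest. None of the 10 was at 0. The 8 endothelial markers were all above 0 as well (median 0.19), and summed to between 568 and 711 CPM in PGR-B OE, 651 and 761 CPM in PGR-A OE and 597 and 703 CPM in control libraries. The part of these markers in the values of Lamb1, Itgb1 and Itga11 was not tested.

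In PGR-B OE against control, 0 of the 36 genes passed by edgeR (0.308% of all genes), 0 by DESeq2 (1.32%) and 0 by limma voom (0.244%). At an unadjusted p under 0.05 there were 3, of which 1 was higher and 2 lower, where 9.28% of all genes were under that p (4.69% higher and 4.59% lower), and the groups did not overlap for 1, where 5.67% of all genes did not. The count at an unadjusted p under 0.05 moved with single libraries, to 8 without PGR-B OE replicate 3 and to 5 without control replicate 1 or without control replicate 3. It was 2 without control replicate 2 and 2 without PGR-B OE replicate 2. The share of all genes under that p in these fits is not given, so the moves are not read as particular to these genes. A log2 change above 0 was found in 17 of the 36, with a median of -0.04 against -0.005 over all genes.

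Itga7, the main laminin receptor chain of muscle, was at 22.8, 25.5, 21.1 and 25.1 CPM in PGR-B OE and at 27.6, 26.4, 35.1 and 32.7 CPM in control libraries. Every PGR-B OE library was below every control library. With 4 libraries each, the log2 change was -0.37 (SE 0.10, edgeR adjusted p = 0.239). Of the 10 smooth muscle markers, 3 had a log2 change above 0 in PGR-B OE against control, 0 were at an unadjusted p under 0.05, and the sums given above overlapped.

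Lamb2, the beta chain of mature basement membranes around muscle and vessels, was at 794, 546, 832 and 849 CPM in PGR-B OE and at 552, 564, 667 and 540.5 CPM in control libraries. In PGR-B OE, 3 libraries were above all controls and replicate 2 was within the control range. The log2 change was 0.38 (SE 0.13, edgeR adjusted p = 0.413), and without PGR-B OE replicate 2 it was 0.51 (adjusted p = 0.0825). With single libraries of these groups left out, it lay between 0.32 and 0.51 (edgeR adjusted p-values of 0.0825 to 0.723). Itga4, a chain for fibronectin and VCAM1 on leukocytes and other cells, was at 15.3, 17.3, 16.9 and 19.7 CPM in PGR-B OE and at 20.8, 21.8, 20 and 18.8 CPM in control libraries. The groups overlapped through PGR-B OE replicate 4, and the log2 change was -0.23 (SE 0.10, edgeR adjusted p = 0.482). Itga4 shares 8.04% of its exon bases with a gene on the opposite strand.

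Between the overexpression groups, taken as PGR-B OE over PGR-A OE, 0 of the 36 genes passed by edgeR (0.116% of all genes), 1 by DESeq2 (0.736%) and 0 by limma voom (0.135%). At an unadjusted p under 0.05 there were 10, 2 higher and 8 lower, where 8.04% of all genes were under that p (3.28% higher and 4.76% lower). The groups did not overlap for 5 of the 36, where 3.85% of all genes did not. A log2 change above 0 was found in 11 of the 36, with a median of -0.15 against 0.0045 over all genes. The smooth muscle markers were on the lower side as well: 0 of 10 had a log2 change above 0, their median was -0.38, and the PGR-A OE sums given above were all higher than the PGR-B OE sums.

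Itga7 was lower in PGR-B OE than in PGR-A OE in every library, at 22.8, 25.5, 21.1 and 25.1 CPM in PGR-B OE and 28.4, 31.1, 32.7 and 32.8 CPM in PGR-A OE. Itga7 had a log2 change of -0.40 (SE 0.10, edgeR adjusted p = 0.261), and the adjusted p was 0.0486 by DESeq2. Its values in PGR-A OE overlapped those of control libraries, so the low group was PGR-B OE. Itga8, the nephronectin receptor chain known from mesenchyme and smooth muscle, was at 70.3, 74.9, 64.7 and 80.6 CPM in PGR-B OE, 109.5, 95.4, 91.7 and 92.8 CPM in PGR-A OE and 64, 86.7, 85.3 and 94.3 CPM in control libraries. The overexpression groups did not overlap each other (log2 change -0.42, SE 0.11, edgeR adjusted p = 0.303), and both overlapped control.

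Itga9 was at 25.4, 27.4, 27.2 and 24.4 CPM in PGR-B OE and at 32, 30.6, 31 and 41.1 CPM in PGR-A OE, without overlap (log2 change -0.37, SE 0.11, edgeR adjusted p = 0.390). With single libraries of these groups left out, its log2 change lay between -0.41 and -0.26. Itga5 was at 387, 479, 406 and 429 CPM in PGR-B OE and at 511, 472, 543 and 576 CPM in PGR-A OE, with PGR-B OE replicate 2 inside the PGR-A OE range (log2 change -0.31, SE 0.11, edgeR adjusted p = 0.519). Itga10 was the gene whose groups did not overlap in the other direction, at 9.53, 9.41, 11.1 and 12.3 CPM in PGR-B OE and 8.83, 6.82, 6.9 and 9.19 CPM in PGR-A OE (log2 change 0.41, SE 0.15, edgeR adjusted p = 0.502). Itga11, with the library values given above, had a log2 change of -0.62 (SE 0.17, edgeR adjusted p = 0.303), and PGR-A OE replicate 4 lay within the PGR-B OE range. Without that library the log2 change was -0.77 and the adjusted p 0.0412 by edgeR, which passes. With single libraries of these groups left out, the edgeR adjusted p of Itga11 ran from 0.0412 to 0.608.

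The laminin beta chains had differences of opposite sign between the overexpression groups. Lamb1 was at 387, 393, 452 and 425 CPM in PGR-B OE and at 471, 484, 495 and 515 CPM in PGR-A OE, without overlap (log2 change -0.25, SE 0.08, edgeR adjusted p = 0.452). Lamb2 was at 794, 546, 832 and 849 CPM in PGR-B OE and at 516, 547, 624 and 525 CPM in PGR-A OE, and PGR-B OE replicate 2 was inside the PGR-A OE range (log2 change 0.45, SE 0.13, edgeR adjusted p = 0.404). Without that replicate it was 0.58 (adjusted p = 0.0739). With single libraries of these groups left out, it lay between 0.39 and 0.58 (edgeR adjusted p-values of 0.0739 to 0.686). Lamb3, the beta chain of the laminin under epithelia, was at 21.7, 11.8, 20.4 and 15.8 CPM in PGR-B OE, 27.1, 28.5, 21.3 and 24.3 CPM in PGR-A OE and 16.2, 18.9, 31 and 23.6 CPM in control libraries, with a log2 change of -0.54 between the overexpression groups (SE 0.21, edgeR adjusted p = 0.558). Lama1 was at 10.9, 12.8, 5.77 and 4.74 CPM in PGR-B OE and at 28.8, 23, 13.4 and 6.37 CPM in PGR-A OE, with overlap (log2 change -1.07, SE 0.45, edgeR adjusted p = 0.586). With single libraries of these groups left out, its log2 change lay between -1.35 and -0.74.

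**Figure D3:**
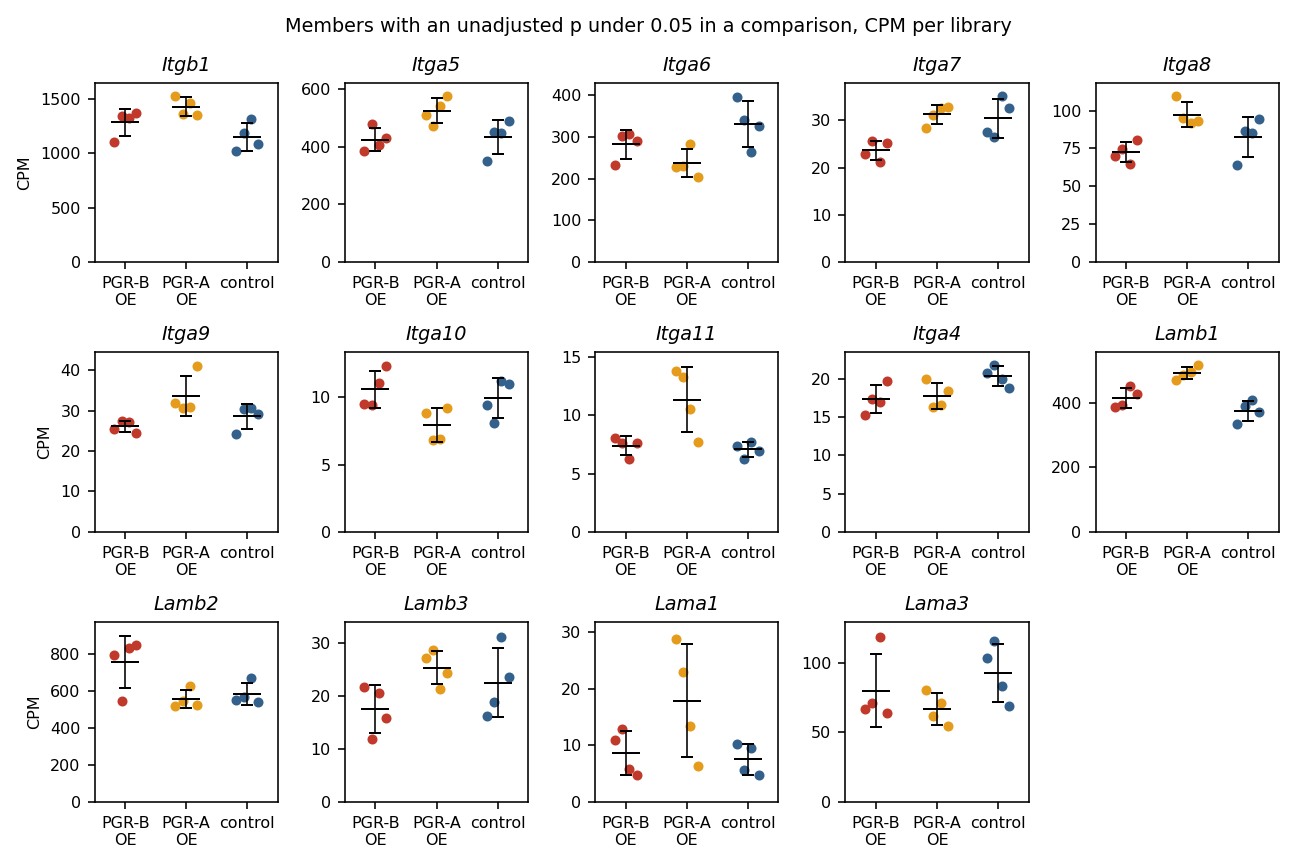
CPM in every library for the 14 genes with an unadjusted p under 0.05 in a comparison, in PGR-B OE, PGR-A OE and control, with the mean and SD of 4 libraries as bars. Lamb1 and Itgb1 are highest in PGR-A OE, Itga7 is lowest in PGR-B OE, and Lama1 spreads from 6.37 to 28.8 CPM within PGR-A OE.

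The ratio of Lamb2 to Lamb1, in CPM per kilobase, puts both beta chains in 1 value. It is 1 of 8 ratios computed between members, which were chosen with results known and are given without a test. The ratio was 2.11, 1.43, 1.89 and 2.05 in PGR-B OE, 1.13, 1.16, 1.29 and 1.05 in PGR-A OE and 1.70, 1.49, 1.69 and 1.5 in control libraries. All PGR-A OE libraries were below all control and all PGR-B OE libraries, and 3 of the 4 PGR-B OE libraries were above control. The share of Lamb1 among laminin beta chains was 34.5% ± 4.14 in PGR-B OE, 44.9% ± 2.00 in PGR-A OE and 37.4% ± 1.66 in control libraries (SD, n = 4 each). The ratio of Itga6 to Itgb1 ran from 0.147 to 0.161 in PGR-B OE, from 0.104 to 0.135 in PGR-A OE and from 0.139 to 0.271 in control libraries, again with every PGR-A OE library below the other groups. Itga6 to Itga5 also separated PGR-A OE, at 0.264 to 0.389, from control, at 0.435 to 0.840. In the other 5 ratios PGR-A OE overlapped control: Lamb1 to Lamc1, Lama5 to Lama4, Itga5 to Itgb1, Itga3 to Itgb1 and Itga6 to Itgb4.

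**Figure D4:**
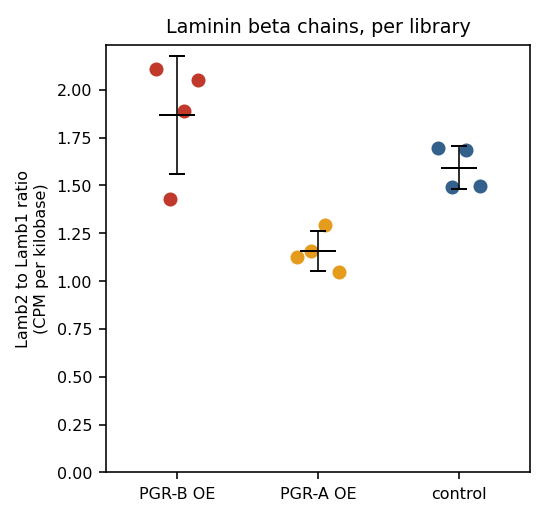
Ratio of Lamb2 to Lamb1 in CPM per kilobase in each library of PGR-B OE, PGR-A OE and control, with the mean and SD of 4 libraries. The PGR-A OE libraries lie between 1.05 and 1.29 and the control libraries between 1.49 and 1.70.

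Some members are best known from epithelium, namely Itgb4, the partner of Itga6 in hemidesmosomes, Lama3 and Lamb3, chains of the laminin they bind, Itga3, another laminin receptor chain, and Itgb6, an activator of latent TGF-beta. PGR-B OE replicate 3 was the highest library of its group in 4 of these 5, the exception being Lamb3. Itgb4 was at 82.9, 70.7, 142 and 74.4 CPM in PGR-B OE, 102, 107, 106 and 116 CPM in PGR-A OE and 135, 150.0, 98.7 and 69.5 CPM in control libraries. Itga3 was at 94.1, 99.3, 155 and 104 CPM in PGR-B OE, 120.4, 124, 114 and 103 CPM in PGR-A OE and 129, 126, 119 and 113 CPM in control libraries. The sum of 7 epithelial markers was 1099, 1166, 1715 and 1224 CPM in PGR-B OE, 1075, 1292, 1335 and 1106 CPM in PGR-A OE and 1664, 1644, 1265 and 1102 CPM in control libraries, with none of the 7 at 0. PGR-B OE replicate 3 and control replicates 1 and 2 were high both in that sum and in Itgb4 and Lama3. The part of epithelium in the lower Lama3 of PGR-A OE was not tested.

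**Figure D5:**
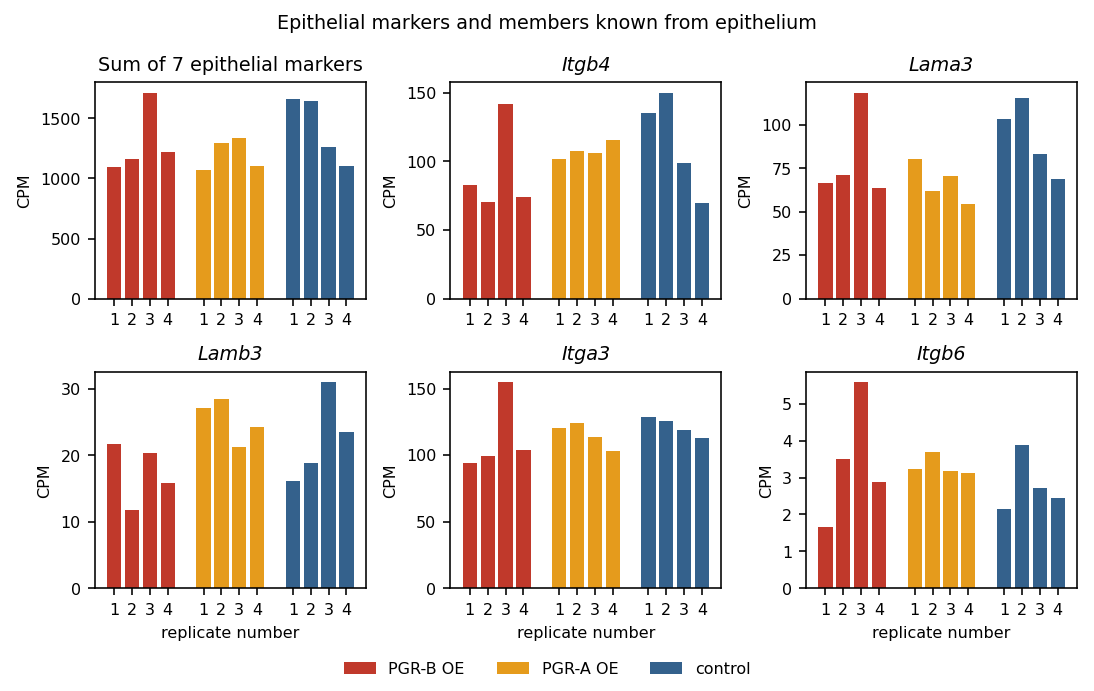
Sum of 7 epithelial markers and levels of Itgb4, Lama3, Lamb3, Itga3 and Itgb6 in CPM in each library of PGR-B OE, PGR-A OE and control, 1 bar per library. PGR-B OE replicate 3 is the highest library of its group in every panel except that of Lamb3.

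Some of the genes are neighbours in the genome. Itga2 and Itga1 lie 21 kb apart on chromosome 13 and had log2 changes in PGR-B OE against control of -0.35 and 0.20, neither at an unadjusted p under 0.05. Itgam, Itgax and Itgad lie next to each other on chromosome 7, with gaps of 11.1 and 3.72 kb. Of the genes with most said about them, Itgb1 spans chromosome 8 from 128685654 to 128733200, Itga11 chromosome 9 from 62677826 to 62783982, Lamb1 chromosome 12 from 31265234 to 31329644, Lamb2 chromosome 9 from 108479736 to 108490530, Itga6 chromosome 2 from 71745616 to 71858416 and Itga7 chromosome 10 from 128933818 to 128958282, in GRCm38. Of the 37, 25 share no exon base with another gene model of the annotation. Itga8 and Itgb4 share 5.05% and 7.66% of theirs with models on the opposite strand, so their counts are less certain. The same holds for the other genes that share exon bases, among them Itgad (19.7%), Lamc3 (6.27%) and Itgav (5.9%).

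The proteins that integrins and laminins work with were taken from 4 lists, and are given by counts. Of 22 genes for partners of laminins in the basement membrane, by edgeR 2 rose in PGR-B OE (0.308% of all genes passed) and 3 in PGR-A OE (0.655%) when each was set against control. DESeq2 called 4 in PGR-B OE (1.32%) and 5 in PGR-A OE (3.83%), and limma voom 1 (0.244%) and 3 (0.611%). Between the overexpression groups 0 passed by edgeR (0.116%), 1 by DESeq2 (0.736%) and 0 by limma voom (0.135%). At an unadjusted p under 0.05, 2 were higher and 5 lower (3.28% and 4.76% of all genes). Against control at that p, 6 were higher and 1 lower in PGR-B OE (4.69% and 4.59%). In PGR-A OE 11 were higher and 0 lower (7.56% and 7.87%). In PGR-A OE, 21 of the 22 had a log2 change above 0, with a median of 0.31, and in PGR-B OE 17 had, with a median of 0.10. The same median over all genes was 0.0005 in PGR-A OE and -0.005 in PGR-B OE.

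The genes that rose were collagens of basement membranes. Col4a4, a network collagen chain, was at 13.7, 10.9, 16.8 and 12 CPM in PGR-B OE, 8.71, 10.5, 12.1 and 11 CPM in PGR-A OE and 5.42, 6.52, 5.4 and 5.27 CPM in control libraries, so that neither overexpression group overlapped control. Its log2 change was 1.24 in PGR-B OE (edgeR adjusted p = 0.00289) and 0.90 in PGR-A OE (adjusted p = 0.0168, and 0.0761 without control replicate 1). For Col4a4 the call was kept under 16 of 16 alternative fits in PGR-B OE and under 14 of 16 in PGR-A OE. Col4a3, its partner chain, was at 12.7, 11.9, 20.8 and 17.2 CPM in PGR-B OE, 16.3, 15.1, 19.5 and 13.7 CPM in PGR-A OE and 8.12, 8.3, 6.66 and 8.37 CPM in control libraries, again without overlap with control. Its log2 change was 0.99 in PGR-B OE (edgeR adjusted p = 0.0393) and 1.04 in PGR-A OE (adjusted p = 0.0212).

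The Col4a3 calls depended on single libraries, and in PGR-B OE also on the tool, with an adjusted p of 0.0727 by limma voom and 0.0725 when edgeR was fitted on the 8 libraries compared. In PGR-B OE its edgeR adjusted p ran from 0.0694 to 0.126 when any 1 of the 4 control libraries was left out. It was 0.0668 when PGR-B OE replicate 3 was left out and 0.121 when replicate 4 was. In PGR-A OE it was 0.0796, 0.0776 or 0.0566 when control replicate 1, 2 or 3 was left out, and 0.0714 or 0.0515 when PGR-A OE replicate 1 or 3 was. Col15a1, a collagen at the outer face of muscle and vessel basement membranes, was at 1030.1, 823, 684 and 789 CPM in PGR-B OE, 844, 784, 767 and 1286 CPM in PGR-A OE and 515, 433, 510.1 and 520.0 CPM in control libraries. The log2 change was 0.90 in PGR-A OE (edgeR adjusted p = 0.0392), a call kept without PGR-A OE replicate 3 or 4 and lost without any other single library of the 8, at adjusted p-values of 0.0568 to 0.146, and lost in the fit of 8 libraries (0.0750). It was 0.75 in PGR-B OE (edgeR adjusted p = 0.128). Col4a3 and Col4a4 lie head to head on chromosome 1, at 82586921 to 82722059 and 82448423 to 82586849, and Col4a3 shares 5.65% of its exon bases with an opposite-strand model.

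Of 40 adaptors and kinases that join integrins to actin, 0 passed by edgeR in any comparison. In PGR-A OE against control, 11 were higher and 0 lower at an unadjusted p under 0.05, where 7.56% of all genes were higher and 7.87% lower at that p. By DESeq2 4 passed (3.83% of all genes) and by limma voom 0, and 32 had a log2 change above 0 (median 0.18). The lowest p was that of Tns1, a tensin of focal adhesions, which averaged 834 ± 129.7 CPM in PGR-A OE and 595 ± 53.5 CPM in control libraries (SD, n = 4 each, edgeR adjusted p = 0.0917). In PGR-B OE against control, 3 were higher and 1 lower at an unadjusted p under 0.05 (4.69% and 4.59% of all genes), 0 passed by DESeq2 or limma voom, and 14 had a log2 change above 0. Between the overexpression groups, 0 were higher and 16 lower at that p (3.28% and 4.76% of all genes), 4 passed by DESeq2 (0.736%) and 0 by limma voom. Flnc, a muscle filamin, averaged 209 ± 13.4 CPM in PGR-B OE and 302 ± 70.1 CPM in PGR-A OE (edgeR adjusted p = 0.259).

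Of 22 tested genes for integrin ligands, 0 passed by edgeR in any comparison and 0 by limma voom. DESeq2 called 5 in PGR-B OE (1.32% of all genes) and 3 in PGR-A OE (3.83%), each set against control, and 1 between the overexpression groups (0.736%). At an unadjusted p under 0.05, 4 were higher and 5 lower in PGR-B OE against control, where 9.28% of all genes were under that p, and 8 were higher and 1 lower in PGR-A OE against control, where 15.4% were. Between the overexpression groups 0 were higher and 6 lower, where 8.04% of all genes were under that p. Fn1, the fibronectin that Itga5 binds, averaged 1638 ± 217 CPM in PGR-B OE, 2259 ± 682 CPM in PGR-A OE and 2939.9 ± 534 CPM in control libraries (SD, n = 4 each). Its log2 change in PGR-B OE against control was -0.84 (edgeR adjusted p = 0.148). Col1a1, a fibrillar collagen bound by the Itga1, Itga2 and Itga11 receptors, averaged 15891 ± 1585 CPM in PGR-B OE, 15305 ± 1433 CPM in PGR-A OE and 11649 ± 599.9 CPM in control libraries. Its log2 change was 0.45 in PGR-B OE (edgeR adjusted p = 0.198) and 0.39 in PGR-A OE (adjusted p = 0.147). Both comparisons use the same control libraries.

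Of 21 genes of the dystroglycan complex and other laminin receptors, 0 passed by edgeR or limma voom in any comparison. DESeq2 called 1 in PGR-B OE (1.32% of all genes) and 2 in PGR-A OE (3.83%), each set against control, and 0 between the overexpression groups (0.736%). In the same order, 3, 6 and 3 were at an unadjusted p under 0.05, where 9.28%, 15.4% and 8.04% of all genes were. Utrn, the utrophin that ties dystroglycan to actin, averaged 80.8 ± 1.55 CPM in PGR-B OE, 83.6 ± 6.16 CPM in PGR-A OE and 98.2 ± 6.26 CPM in control libraries (SD, n = 4 each). Its log2 change was -0.28 in PGR-B OE (edgeR adjusted p = 0.156) and -0.23 in PGR-A OE (adjusted p = 0.145).

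The genes without an unadjusted p under 0.05 in a comparison were 22 of the 36 tested. Lamc1, the gamma chain of most laminins, was at 614, 628, 769 and 817 CPM in PGR-B OE, 755, 859.5, 819 and 769 CPM in PGR-A OE and 673, 711, 773 and 621 CPM in control libraries, and all groups overlapped. Lama5 was at 337, 328, 439.6 and 324 CPM in PGR-B OE, 419, 443, 469.8 and 295 CPM in PGR-A OE and 291, 295, 361 and 359 CPM in control libraries, with PGR-A OE replicates 1 to 3 high and replicate 4 among the lowest. Lama4 was at 246, 259.9, 329 and 359 CPM in PGR-B OE, 311, 295, 329 and 432 CPM in PGR-A OE and 291, 323, 328 and 285 CPM in control libraries, with PGR-A OE replicate 4 the highest of all. Lama4 and Lama5 thus differed in opposite ways in that library.

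The receptors of vitronectin and latent TGF-beta overlapped between groups. Itgav ran from 80.5 to 149.9 CPM in PGR-B OE, 87.9 to 125 CPM in PGR-A OE and 114 to 142 CPM in control libraries. Itgb5, one of its partners, ran from 272 to 357 CPM in PGR-B OE, 263 to 360.4 CPM in PGR-A OE and 274 to 326 CPM in control libraries. Itgb3, the other vitronectin partner, ran from 84.4 to 136 CPM in PGR-B OE, 104 to 142 CPM in PGR-A OE and 106 to 131 CPM in control libraries. Itgb8, known for activating latent TGF-beta, stayed between 1.23 and 2.57 CPM in all 12 libraries. Itga1, the main collagen receptor chain of smooth muscle, ran from 115 to 143 CPM in PGR-B OE, 109 to 142 CPM in PGR-A OE and 102 to 126 CPM in control libraries. Lamc3 was at 16.5, 4.28, 3.38 and 3.46 CPM in PGR-B OE, where 1 library made its log2 change against control 0.89, and between 2.31 and 4.79 CPM in the other groups.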

How the data were processed

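The authors deposited 1 table of whole-number counts per gene and the gene length for all 12 libraries, not normalized. Per the labels' protocols, a TruSeq kit and paired reads of 75 bp were used. The submitters' processing notes name STAR 2.7.0f, Bowtie2 2.2.5, Subread 1.6.4, DESeq2 and featureCounts, with the builds mm10 and GRCm38. Which annotation and strand setting served for counting is not given in the sources used here, so counts of genes that overlap others are uncertain.

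From these counts, edgeR 4.0.16 in R 4.3.3 was run on all 12 libraries in 1 robust quasi-likelihood fit (filterByExpr, TMM scaling, 15561 genes tested, Benjamini-Hochberg over all of them, threshold 0.05). The method was checked on simulated data, but only with planted changes wider than most of those given here. CPM are from TMM-scaled library sizes. DESeq2 1.42.0, limma 3.58.1 (voom), RLE size factors, no filter, a fit of 8 libraries, a replicate block and leaving out libraries were alternatives. Positions and overlaps come from GENCODE's GRCm38 annotation. Genes with an unadjusted p under 0.05 in a comparison, and Itga11, are given in every library. From the partner lists, genes that passed and up to 4 with the lowest p could be named. The members and lists were chosen with earlier results of these data known. No libraries of a group were the same within sampling noise. The values of 1 member are not reported here, though it is included in the counts.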

Additional observations from a re-analysis of the deposited data

Results flagged for a closer look

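Each of the 36 genes tested was examined in each group for a library far from the other 3, which makes 108 groups, and 7 stood out. Chance alone gives about 1 in 20 groups.

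In PGR-B OE replicate 3, Itga3 was at 155 CPM (nearest library 104 CPM), Lama3 at 119 CPM (nearest 71.0 CPM) and Lama5 at 439.6 CPM (nearest 337 CPM), and the same library had the highest epithelial marker sum of its group. In PGR-B OE replicate 1, Lamc3 was at 16.5 CPM (nearest 4.28 CPM) and Itgb1 at 1104 CPM (nearest 1328 CPM). That library also held 42.3 CPM of uterine NK cell markers, against at most 19.6 CPM in any other library. The part of these markers was not tested.

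In PGR-A OE replicate 4, Itga9 was at 41.1 CPM (nearest 32.0 CPM). In control replicate 4, Itgb7, a beta chain of lymphocytes, was at 10.4 CPM (nearest 7.23 CPM).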

How the results depend on the processing

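In PGR-B OE against control, the count of genes past the threshold was 0 under all 16 alternatives. In PGR-A OE against control it was 0, and 3 with DESeq2 (Lamb1, Itga11 and Itga6), which called 3.83% of all genes. It was 5 with limma voom and sample quality weights (Lamb1, Lama1, Itga6, Lama5 and Itga11), and 1 (Itga11) when replicate 4 of both groups was left out. Leaving out 1 library gave 0 to 1, with Itga11 passing without PGR-A OE replicate 4. Between PGR-B OE and PGR-A OE it was 0, and 1 with DESeq2 (Itga7), which called 0.736% of all genes. It was 1 with quality weights (Itga11) and 1 (Itga11) without replicate 4 of PGR-A OE and of control. Leaving out 1 library gave 0 to 1, again Itga11 without PGR-A OE replicate 4. It was 0 without PGR-A OE replicate 4 and PGR-B OE replicate 1. The quality weights and that last setting were added after seeing the data, and the cause of these differences was not tested. The shares of all genes called with quality weights or with libraries left out are not given. Those counts are thus not read as particular to these genes. The 23 named log2 changes of members were all outside the threshold in the main fit. Of their 378 alternative values, 365 kept their direction and stayed outside it, 13 came to pass and 0 changed sign. The alternatives share most of their libraries with the main fit, so they are no independent check. Of the 80 alternative values for the 5 collagen calls, 26 lost the call and 0 changed sign.

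Whether equal replicate numbers pair the libraries is not in the labels. Deviations of same-numbered libraries correlated between -0.257 and 0.190, and 2 of the 12 libraries matched best a library with their own number. With 4 libraries a group, these values cannot decide whether libraries were paired. With the replicate block, 0 members passed in each comparison, and of all genes 32 passed for PGR-B OE and 69 for PGR-A OE when set against control, against 48 and 102 without the block. Between the overexpression groups 11 passed with it and 18 without it. With the block the adjusted p of Col4a3 was 0.105 in PGR-B OE and 0.0503 in PGR-A OE and that of Col15a1 in PGR-A OE 0.0538, which ends these calls. In PGR-A OE against control, the SE of the log2 change was 0.30 for Itgb6 and 0.48 for Lamc3. With 4 libraries a group, these genes could show only wide differences. Itgad was not tested.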
